A study of Mus musculus with 6 samples.

Results

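The values described here are those of 10 transcripts of the mouse hippocampus that are annotated as long noncoding RNAs or as predicted genes: *Gm5741*, *Gm38534*, *D130009I18Rik*, *D130079A08Rik*, *Gm10754*, *Rmst*, *Meg3*, *Miat*, *Malat1*, and *Snhg11*. They were taken by gene symbol from the 14477 genes with deposited values, and all 10 were present. They were chosen by the measured genotype differences and levels of these same mice: the list joins transcripts that were nearly absent from the mutant hippocampi, 1 that was higher there, and abundant noncoding RNAs of the brain. The genotype differences of these 10 are therefore given as a description, without a test.

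The study compared hippocampi of 3 Phf21b Δ4/Δ4 mice (replicates 2, 3, and 6) with those of 3 Phf21b+/+ mice (replicates 5, 7, and 8), with 1 library of total RNA per mouse made after removal of ribosomal RNA. The Phf21b Δ4/Δ4 mice carry, in all tissues and on both alleles, a CRISPR/Cas9 deletion in exon 4 of *Phf21b*, which encodes a plant homeodomain finger protein that reads histone marks, and the study treats them as a knockdown model. The mice were sampled at baseline with no treatment, and the sample labels give neither their age nor their sex. The study's methods name littermates of both sexes, aged 2 to 6 months, for every experiment where nothing else is stated. How age, sex, and litter were spread over these mice is not given. Nothing in the labels names a batch or a dissection.

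Long noncoding RNAs are transcribed and processed like messenger RNAs but are not translated into a known protein. Many stay in the nucleus, where they scaffold splicing factors or chromatin proteins, and others are kept mainly as hosts of small RNAs that are cut from their introns. In the brain they are often restricted to 1 neuron type or region, so that their level in a dissected tissue follows both transcription and the cells that were collected. In these bulk samples, fewer cells of a type and less RNA per cell cannot be told apart.

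Reads on the listed genes came to between 20495605 and 24881257 per mouse. Read numbers were recovered from the deposited log2 CPM values (CPM stands for reads scaled to effective library size), and 3 reads, taken as the smallest level that the depth can show, were worth between 0.127 and 0.143 CPM. Intervals and floors cover counting error only. *Phf21b* itself was at 6.50, 5.23, and 6.47 CPM in Phf21b+/+ replicates 5, 7, and 8 and at 2.15, 3.57, and 3.87 CPM in the mutant replicates 2, 3, and 6, a log2 difference of -0.96 (SE 0.26, FDR 0.14 by limma). Genes counted as called when limma gave an FDR under 0.1 together with more than a 1.3-fold difference, which held for 176 of all genes (1.22%), while 3421 (23.6%) had an unadjusted p under 0.05. The libraries of Phf21b+/+ replicates 7 and 8 stood apart in 14 choroid plexus markers. These summed to 16402 and 1037 CPM there, against 29.4 to 92.5 CPM in the other mice. Markers of CA1 and CA3 pyramidal neurons and of dentate granule cells were present in every library, though not at even levels. The dentate markers summed to 657 and 660 CPM in Phf21b Δ4/Δ4 replicates 2 and 3, against 1198 to 1530 CPM in the other mice.

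Of the 10 transcripts, 4 were past both thresholds as lower in Phf21b Δ4/Δ4 mice, where 0.663% of all genes were, and 1 as higher, where 0.553% were. In the same 4 the 3 Phf21b Δ4/Δ4 mice all lay below the 3 Phf21b+/+ mice, against 16.0% of all genes. In 1 they all lay above, against 15.0% of all genes. The genotypes overlapped in the other 5. Since the list was made from this contrast, these counts describe the choice and carry no further weight. With Phf21b+/+ replicate 8 left out, none of the 10 was past the thresholds by limma's test, and with Phf21b+/+ replicate 5 or 7 left out 2 were.

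*Gm5741*, a predicted gene whose product has no assigned role, had the largest contrast of the 10. It lies on the minus strand of chromosome 8 (GRCm38, 85067568 to 85067982) and has 328 exonic bases, and GENCODE release M21 annotates it as protein coding. Its reads numbered 230, 336, and 648 in Phf21b+/+ replicates 5, 7, and 8, and 0, 0, and 0 in the Phf21b Δ4/Δ4 mice. The mean in Phf21b+/+ mice was 18.1 ± 9.71 CPM (SD, n = 3), so that *Gm5741* was at least 126-fold lower when the mutant level is put at 3 reads. Every Phf21b+/+ mouse was far above the floor, and their own levels spread widely, with the highest at 2.67 times the lowest. Its neighbours on the chromosome showed no such contrast. *Fbxw9*, which encodes an F-box protein and lies 0.444 kb beyond its 3′ end, had a log2 difference of 0.28 (SE 0.15, FDR 0.29 by limma), and *Dhps*, the enzyme that starts the hypusine modification of eIF5A, had one of -0.13 (SE 0.07, FDR 0.29 by limma). The RefSeq promoter of *Gm5741* (GRCm38.p6, chr8:85067933-85068232, minus strand) covers 250 bases before its start and the first 50 after it. It is shown because this transcript had the largest contrast. It holds 2 CpG dinucleotides, where the median is 7 over the 32851 mouse promoters of the same length and 20 over the 14533 promoters of listed genes.
Gm5741: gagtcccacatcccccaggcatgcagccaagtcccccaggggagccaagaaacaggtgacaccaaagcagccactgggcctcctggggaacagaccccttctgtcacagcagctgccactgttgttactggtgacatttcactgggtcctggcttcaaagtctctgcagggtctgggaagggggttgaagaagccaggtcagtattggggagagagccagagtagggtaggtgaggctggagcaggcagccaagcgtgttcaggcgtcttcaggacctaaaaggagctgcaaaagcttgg

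*Gm38534* is an intergenic noncoding RNA on the plus strand of chromosome 11 (GRCm38, 88253368 to 88256990) with 1909 exonic bases. It had 70, 75, and 152 reads in Phf21b+/+ replicates 5, 7, and 8 and 1 read in each of the 3 Phf21b Δ4/Δ4 mice. In CPM this was 3.32, 3.17, and 6.83 in Phf21b+/+ mice, a mean of 4.44 ± 2.07 (SD, n = 3). With the reads of each genotype pooled, the Phf21b+/+ level was 100 times the Phf21b Δ4/Δ4 level. The exact 95% interval of 33.9 to 488 covers the counting error of pooled reads and not the spread among mice. By quantitative reverse transcriptase PCR, the study verified the change of *Gm5741* but could not verify that of *Gm38534*. As for *Gm5741*, replicate 8 was the highest of the Phf21b+/+ mice. The nearest listed genes were *Mrps23*, which encodes a protein of the mitochondrial ribosome (log2 difference -0.25, SE 0.07, FDR 0.15 by limma), and *Msi2*, which encodes an RNA-binding protein of neural progenitors (log2 difference -0.53, SE 0.12, FDR 0.13 by limma).

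*D130009I18Rik* and *D130079A08Rik* are long intergenic noncoding RNAs on either side of *Pou4f1*, which encodes the homeodomain factor BRN3A and is a defining gene of the medial habenula. *D130079A08Rik* runs on the minus strand of chromosome 14 (GRCm38, 104288431 to 104459336) over 171 kb, and its start lies 2.34 kb from *Pou4f1*. *D130009I18Rik* runs on the plus strand (GRCm38, 104612791 to 104966783) over 354 kb, and begins 145 kb beyond *Pou4f1* on the other side. The reads of *D130079A08Rik* numbered 20, 33, and 33 in Phf21b+/+ replicates 5, 7, and 8 and 0, 0, and 0 in the Phf21b Δ4/Δ4 mice. At a Phf21b+/+ mean of 1.27 ± 0.286 CPM (SD, n = 3), the mutant level was at least 8.92-fold lower, a bound limited by so few reads. The reads of *D130009I18Rik* numbered 51, 48, and 78 in Phf21b+/+ mice and 1, 0, and 0 in Phf21b Δ4/Δ4 replicates 2, 3, and 6. Its pooled Phf21b+/+ level was 179 times the Phf21b Δ4/Δ4 level. The exact 95% interval of 31.7 to 7101 again covers counting error and not the spread among mice. The study could not verify the change of *D130009I18Rik* by quantitative reverse transcriptase PCR. The genotypes did not overlap in either gene.

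**Figure D1:**
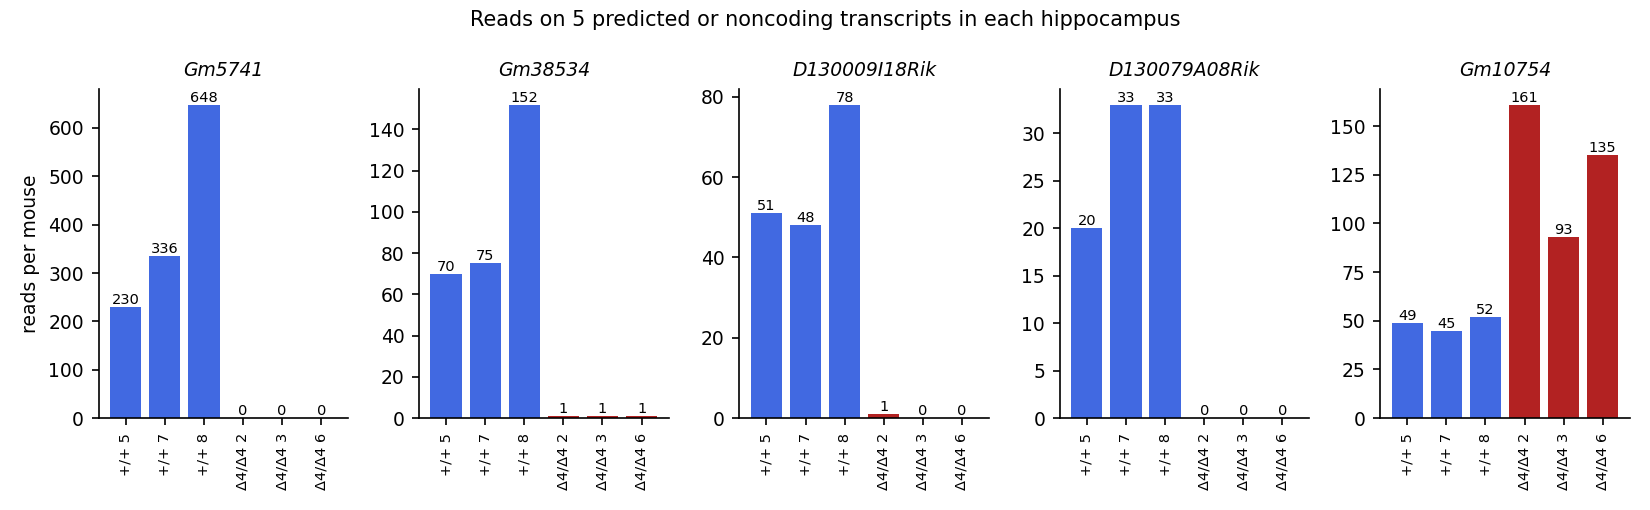
Reads (y axis, linear, each panel with its own scale) on *Gm5741*, *Gm38534*, *D130009I18Rik*, *D130079A08Rik*, and *Gm10754* in each mouse (x axis; blue, Phf21b+/+; red, Phf21b Δ4/Δ4; the number of reads stands above each bar). The first 4 transcripts had at most 1 read in any Phf21b Δ4/Δ4 mouse and at least 20 in every Phf21b+/+ mouse, while *Gm10754* had 93 to 161 reads in Phf21b Δ4/Δ4 mice and 45 to 52 in Phf21b+/+ mice.

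*Pou4f1* itself had 385, 286, and 458 reads in Phf21b+/+ replicates 5, 7, and 8 and 2, 1, and 0 in Phf21b Δ4/Δ4 replicates 2, 3, and 6 (FDR 0.047 by limma). Between *Pou4f1* and *D130009I18Rik* lies *Rnf219*, which encodes a ring finger protein and whose 3′ end is 9.54 kb from *Pou4f1*. Mutant libraries held 464, 380, and 409 reads of it and control libraries 360, 413, and 391, a log2 difference of 0.09 (SE 0.09, FDR 0.53 by limma). The low levels thus did not run through the whole stretch. Of the 18 listed genes within 1500 kb of *Pou4f1*, *Pou4f1* and these noncoding RNAs were the 3 past both thresholds. The nearest listed genes outside the stretch were *Ednrb*, the endothelin receptor type B (log2 difference -0.05, SE 0.20, FDR 0.89 by limma), and *Rbm26*, which encodes an RNA-binding protein (log2 difference 0.03, SE 0.08, FDR 0.81 by limma).

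**Figure D2:**
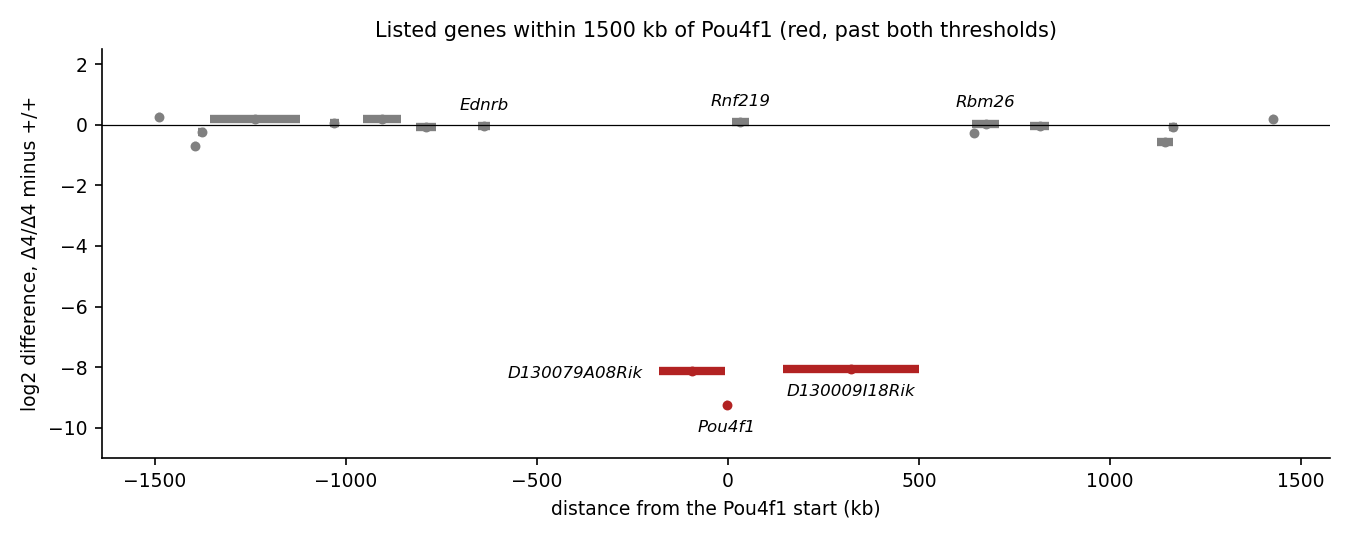
Log2 difference between genotypes (y axis, Phf21b Δ4/Δ4 minus Phf21b+/+) of the 18 listed genes within 1500 kb of *Pou4f1*, drawn over their length at their distance from the *Pou4f1* start (x axis, kb; red, past both thresholds; gray, not). *D130079A08Rik*, *Pou4f1*, and *D130009I18Rik* lie at log2 differences of -8.14, -9.24, and -8.05, which depend on the prior count because the mutant reads are at or near 0, and *Rnf219* between them lies at 0.09.

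The RefSeq promoters of these neighbouring RNAs are printed because both transcripts had at most 1 read in every Phf21b Δ4/Δ4 mouse. For *D130079A08Rik* it is chr14:104459287-104459586 on the minus strand of GRCm38.p6, and for *D130009I18Rik* it is chr14:104638894-104639193 on the plus strand, which lies inside the gene's GENCODE span. They hold 10 and 1 CpG dinucleotides. The letters searched for on both strands were the cAMP response element TGACGTCA, the shorter TGACG, which the whole element contains, and the TATA box TATAAA. *D130079A08Rik* has TGACG, in capitals, at position -130 from its start and TATAAA at position -30. *D130009I18Rik* has none of the 3 in this window. TGACG is in 20.8% of all promoters of this length and in 29.5% of those of listed genes, and TATAAA in 13.6% and 7.46%.
D130079A08Rik: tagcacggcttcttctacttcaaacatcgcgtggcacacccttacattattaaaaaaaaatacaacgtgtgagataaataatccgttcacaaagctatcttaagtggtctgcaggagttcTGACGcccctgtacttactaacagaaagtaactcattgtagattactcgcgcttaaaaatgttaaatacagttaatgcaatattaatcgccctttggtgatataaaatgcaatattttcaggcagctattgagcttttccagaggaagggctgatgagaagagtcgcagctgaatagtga
D130009I18Rik: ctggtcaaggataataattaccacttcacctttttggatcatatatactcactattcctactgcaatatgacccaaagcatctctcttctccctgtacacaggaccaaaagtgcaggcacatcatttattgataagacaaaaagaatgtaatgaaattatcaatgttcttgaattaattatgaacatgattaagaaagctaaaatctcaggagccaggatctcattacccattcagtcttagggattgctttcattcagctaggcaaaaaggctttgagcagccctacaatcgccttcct

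The transcripts closest in pattern to the 4 lost ones were genes of habenular cholinergic neurons or others of the 4. Likeness was the root mean square distance between log2 CPM profiles over the 6 mice, each centred on its own mean, so that a smaller value is more alike. For *Gm5741* these were *Irx2*, an Iroquois homeobox factor, at 1.499 and *Chat*, which makes acetylcholine, at 1.83. For *Gm38534* they were the nicotinic receptor subunits *Chrna3* at 0.566 and *Chrnb4* at 0.748. For *D130009I18Rik* they were *Chat* at 0.493 and *Irx2* at 0.969. For *D130079A08Rik* they were *Gm38534* at 0.914 and *D130009I18Rik* at 1.16. All these profiles share the step between genotypes that put the 4 transcripts on the list, and values at 0 or 1 read depend on the prior count.

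Markers of the medial habenula, an epithalamic nucleus near the hippocampus, moved with the lost transcripts. Their list was drawn up with earlier results of these data known, so its counts are a description. Of 27 listed markers, 19 were lower past both thresholds by limma's test, where 0.663% of all genes were, and 0 were higher. At an unadjusted p under 0.05 by limma, 25 had a lower level and 1 a higher. The median log2 difference of the markers was -3.26 where that of all genes was -0.02. Their summed level was 149 to 324 CPM in Phf21b Δ4/Δ4 mice and 715 to 807 CPM in Phf21b+/+ mice, and 4 of them had at most 3 reads in all Phf21b Δ4/Δ4 mice. The largest differences were those of *Irx2*, *Pou4f1*, *Chat*, and *Slc18a3*, the vesicular acetylcholine transporter, with means of 0.0141, 0.0440, 0.0141, and 0.0145 CPM in Phf21b Δ4/Δ4 mice against 10.02, 16.97, 5.19, and 2.76 CPM in Phf21b+/+ mice. As a share of the habenular sum, *Gm5741* was 1.53%, 1.93%, and 3.61% in Phf21b+/+ replicates 5, 7, and 8, and 0% in each Phf21b Δ4/Δ4 mouse. *Gm38534* was 0.465%, 0.431%, and 0.847% of it in Phf21b+/+ mice and 0.0147% to 0.0292% in Phf21b Δ4/Δ4 mice. The sums in Phf21b Δ4/Δ4 mice included *Nr4a2* at 39.9, 137, and 32.4 CPM in replicates 2, 3, and 6. In the same order they also included *Calb2* at 52.8, 27.8, and 14.8 CPM and *Slc17a6* at 7.30, 51.2, and 21.4 CPM. *Irx2*, *Chat*, and *Pou4f1*, by contrast, had at most 2 reads in any Phf21b Δ4/Δ4 mouse, as the lost transcripts did. The part of the dissected cells in the low level of the 4 transcripts was not tested.

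Markers of other cells that the dissection could hold were counted in the same way. Of 12 thalamic markers, 2 were lower past both thresholds (*Zic1* and *Tcf7l2*) and 7 had an unadjusted p under 0.05, with sums of 213 to 298 CPM in Phf21b Δ4/Δ4 mice and 418 to 685 CPM in Phf21b+/+ mice. Of 14 choroid plexus markers 1 was lower (*Otx2*, which voom did not call), with 4 at an unadjusted p under 0.05 by limma. All 14 had a log2 difference below 0, with a median of -4.43. They summed to 92.5, 29.4, and 46.9 CPM in Phf21b Δ4/Δ4 replicates 2, 3, and 6. In Phf21b+/+ replicates 5, 7, and 8 the sums were 38.0, 16402, and 1037 CPM. Of 12 CA1 markers 3 were higher (*Fibcd1*, *Mpped1*, and *Gpr161*) and 6 had an unadjusted p under 0.05, with sums of 2056 to 2178 CPM in Phf21b Δ4/Δ4 mice and 1064 to 1324 CPM in Phf21b+/+ mice. Of 14 dentate granule cell markers 2 were lower (*Glis3* and *Pdzd2*), and all 14 had a log2 difference below 0, 12 of them at an unadjusted p under 0.05 by limma. They summed to 657, 660, and 1198 CPM in Phf21b Δ4/Δ4 replicates 2, 3, and 6, against 1364 to 1530 CPM in Phf21b+/+ mice. Of 10 astrocyte markers 1 was lower (*Aqp4*), with 2 at an unadjusted p under 0.05 by limma. By limma's test 0 of 12 CA3, 10 oligodendrocyte, 10 microglial, and 10 endothelial and pericyte markers were past the thresholds, with 4, 0, 1, and 5 at an unadjusted p under 0.05 (23.6% of all genes), and voom called 0 of them. Their part in the values of the 10 transcripts was not tested.

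*Gm10754* was the transcript with a higher level in Phf21b Δ4/Δ4 mice. It is an intergenic noncoding RNA of 1633 exonic bases spread over 286 kb on the minus strand of chromosome 10 (GRCm38, 97681414 to 97967090), and no role is assigned to it. Its level was 6.79, 4.43, and 5.87 CPM in Phf21b Δ4/Δ4 replicates 2, 3, and 6, against 2.33, 1.90, and 2.34 CPM in Phf21b+/+ replicates 5, 7, and 8. The lowest mutant value was above the highest control value. The means were 5.70 ± 1.19 and 2.19 ± 0.2495 CPM (SD, n = 3 each), a ratio of 2.60 and a log2 difference of 1.36 (SE 0.22). Fits without 1 of the 6 mice gave log2 differences between 1.23 and 1.53, though in 5 of these 6 fits it was not called. Its nearest listed neighbours were *Lum*, which encodes the proteoglycan lumican (log2 difference -0.16, SE 0.35, FDR 0.66 by limma), and *Atp2b1*, a calcium pump of the plasma membrane that begins 947 kb away (log2 difference 0.46, SE 0.24, FDR 0.28 by limma). The genes most like it in pattern were *Grpr*, the receptor of gastrin-releasing peptide, at a distance of 0.173, and *Gpr161*, a receptor of the primary cilium and 1 of the CA1 markers above, at 0.178.

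The other 5 transcripts are long noncoding RNAs of the brain. Their genotypes overlapped in these mice, and none was past the thresholds, though array weights called *Rmst* and *Malat1*.

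*Rmst* is a noncoding RNA of neural progenitors and midbrain that works with SOX2. It lies on the minus strand of chromosome 10 (GRCm38, 92071037 to 92165170) and hosts miR-135a and miR-1251 on the same strand, whose own levels were not measured here. Its level was 3.96, 10.1, and 6.96 CPM in Phf21b Δ4/Δ4 replicates 2, 3, and 6, against 9.40, 12.7, and 14.3 CPM in Phf21b+/+ replicates 5, 7, and 8. Only Phf21b Δ4/Δ4 replicate 3 reached into the Phf21b+/+ range. The means were 6.99 ± 3.04 and 12.1 ± 2.49 CPM (SD, n = 3 each), a log2 difference of -0.87 (SE 0.35), which lay between -1.18 and -0.51 with each mouse left out. The genes most like it were *Rgs6*, a regulator of G protein signaling, at a distance of 0.103 and *Lin28b*, which blocks maturation of let-7 miRNAs, at 0.115. Its nearest listed genes, *Tmpo* and *Nedd1*, which encode a protein of the nuclear lamina and one of the centrosome, lay 889.7 and 519.6 kb away, with log2 differences of -0.36 (SE 0.11, FDR 0.15 by limma) and -0.23 (SE 0.18, FDR 0.45 by limma).

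*Malat1*, a nuclear RNA of splicing speckles, was the most abundant of the 10, also per length of exon. It lies on the minus strand of chromosome 19 (GRCm38, 5795690 to 5802672), has 6983 exonic bases, and ranked 5 of 14477 by mean log2 CPM. It took 0.233% to 0.417% of the reads of a mouse. Its level was 2444, 2759, and 3341 CPM in Phf21b Δ4/Δ4 replicates 2, 3, and 6, against 3429, 2658, and 4035 CPM in Phf21b+/+ replicates 5, 7, and 8. The genotypes overlapped, with the means at 2848 ± 455 and 3374 ± 690 CPM (SD, n = 3 each) and a log2 difference of -0.24 (SE 0.21). The genes most like it in pattern, *Fdxr* (ferredoxin reductase of mitochondria) and *Eya4* (a transcriptional coactivator), were at distances of 0.034 and 0.041. Next to it lies *Neat1*, the noncoding RNA that builds paraspeckles, 22.0 kb away. *Neat1* had 5.74, 8.10, and 22.6 CPM in Phf21b Δ4/Δ4 mice and 19.9, 30.3, and 26.1 CPM in Phf21b+/+ mice (log2 difference -1.30, SE 0.48, FDR 0.18 by limma), with Phf21b Δ4/Δ4 replicate 6 inside the Phf21b+/+ range.

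*Meg3* is the maternally expressed noncoding RNA of the imprinted *Dlk1-Dio3* domain. It lies on the plus strand of chromosome 12 (GRCm38, 109541001 to 109571726). Its level was 172, 509, and 187 CPM in Phf21b Δ4/Δ4 replicates 2, 3, and 6, against 228, 122, and 247 CPM in Phf21b+/+ replicates 5, 7, and 8. Phf21b Δ4/Δ4 replicate 3 was high, while the other mutants lay within the Phf21b+/+ range. The means were 289 ± 191 and 199 ± 66.9 CPM (SD, n = 3 each), a log2 difference of 0.41 (SE 0.46) that turned to -0.09 without Phf21b Δ4/Δ4 replicate 3 and fell to 0.10 without Phf21b+/+ replicate 7.

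*Snhg11*, a small nucleolar RNA host gene of neurons, followed *Meg3* from mouse to mouse. It lies on the plus strand of chromosome 2 (GRCm38, 158375638 to 158386145). GENCODE release M21 annotates it as protein coding and RefSeq as a long noncoding RNA. Its level was 91.3, 248, and 83.9 CPM in Phf21b Δ4/Δ4 replicates 2, 3, and 6, against 103, 67.8, and 126 CPM in Phf21b+/+ replicates 5, 7, and 8. The order of the mice was nearly that of *Meg3*, with Phf21b Δ4/Δ4 replicate 3 highest and Phf21b+/+ replicate 7 lowest in both. The log2 difference between genotypes was 0.37 (SE 0.44), and -0.13 without Phf21b Δ4/Δ4 replicate 3. Of its neighbours, *Snhg17*, another host gene 14.1 kb away, had a log2 difference of -0.59 (SE 0.20, FDR 0.17 by limma), and *Ralgapb*, which encodes a subunit of a Ral GTPase-activating complex, one of 0.29 (SE 0.08, FDR 0.14 by limma).

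*Miat*, a nuclear RNA of neurons that binds splicing factors, lies on the minus strand of chromosome 5 (GRCm38, 112213228 to 112229395). Its level was 38.0, 86.2, and 61.0 CPM in Phf21b Δ4/Δ4 replicates 2, 3, and 6, against 75.02, 34.5, and 62.3 CPM in Phf21b+/+ replicates 5, 7, and 8. The same mice were again highest and lowest, and the genotypes overlapped throughout. The log2 difference was 0.10 (SE 0.38), -0.18 without Phf21b Δ4/Δ4 replicate 3 and -0.23 without Phf21b+/+ replicate 7. Its neighbours *C130026L21Rik*, a noncoding RNA, and *Crybb1*, a crystallin, had log2 differences of 0.71 (SE 0.17, FDR 0.13 by limma) and 0.01 (SE 0.29, FDR 0.99 by limma). The genes most like *Miat* were the predicted genes *Gm50322* and *Gm14443*, at distances of 0.128 and 0.144.

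**Figure D3:**
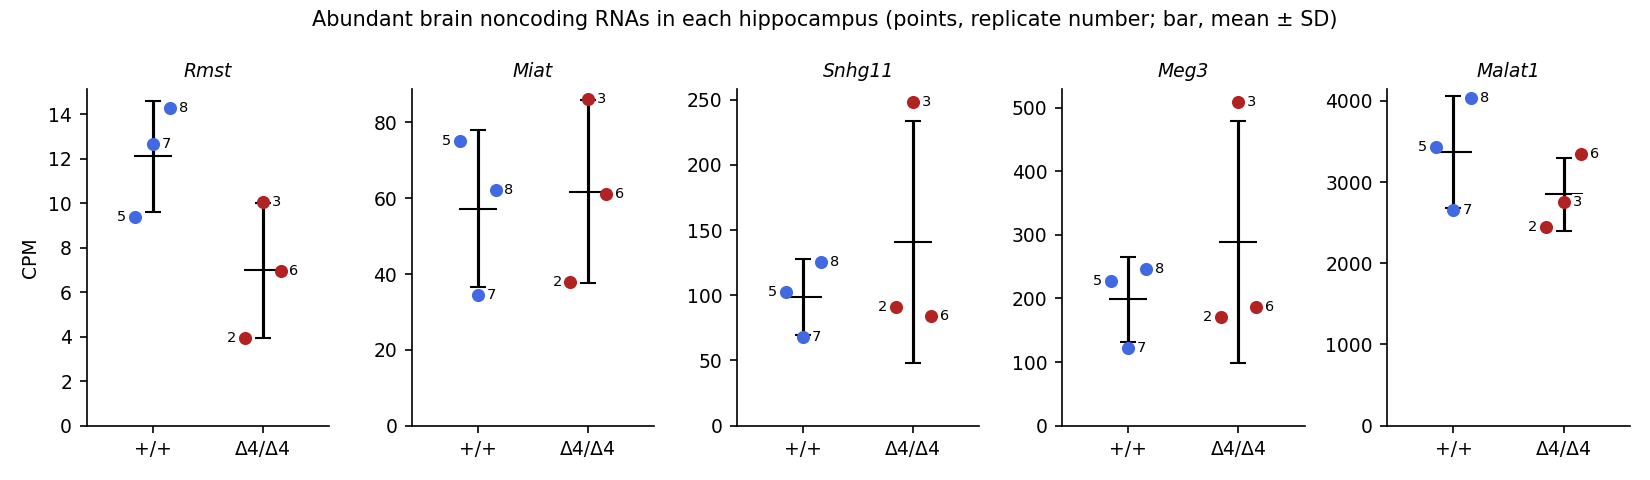
CPM (y axis, linear from 0, each panel with its own scale) of *Rmst*, *Miat*, *Snhg11*, *Meg3*, and *Malat1* in each mouse, with the replicate number beside each point (blue, Phf21b+/+; red, Phf21b Δ4/Δ4) and the mean ± SD of the 3 mice in black. The genotypes overlap in all 5 panels, and Phf21b Δ4/Δ4 replicate 3 is the highest mouse for *Miat*, *Snhg11*, and *Meg3*, at 509 CPM for *Meg3* against at most 247 CPM in the other mice.

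The spread among mice of 1 genotype was the main feature of *Meg3*, *Snhg11*, and *Miat*. *Rmst* also spread among Phf21b Δ4/Δ4 mice, by 1.34 on the log2 scale, but its log2 difference stayed below 0 with each mouse left out. The levels of *Meg3* in Phf21b Δ4/Δ4 mice spanned 1.57 on the log2 scale, and 4.78% of all genes spanned more. Those of *Snhg11* spanned 1.56, and 4.81% of genes more. The median span over all genes was 0.33 in Phf21b Δ4/Δ4 mice and 0.25 in Phf21b+/+ mice. *Malat1* spanned 0.45 in Phf21b Δ4/Δ4 mice, which 36.9% of genes exceeded, and 0.60 in Phf21b+/+ mice, which 16.4% exceeded. In Phf21b+/+ mice *Rmst* spanned 0.61, close to *Malat1*. Relative to the mean log2 CPM of its genotype, Phf21b Δ4/Δ4 replicate 3 was higher by 1.005 for *Meg3*, 1.002 for *Snhg11*, 0.56 for *Miat*, and 0.62 for *Rmst*, and at -0.03 for *Malat1*. Phf21b+/+ replicate 7 stood at -0.64 for *Meg3*, -0.50 for *Snhg11*, and -0.66 for *Miat*. The ratio of *Meg3* to *Snhg11* CPM, by contrast, stayed between 1.81 and 2.22 in all 6 mice, its highest value 1.23 times its lowest, where the ratio of *Meg3* to *Malat1* CPM spread 4.004-fold.

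**Figure D4:**
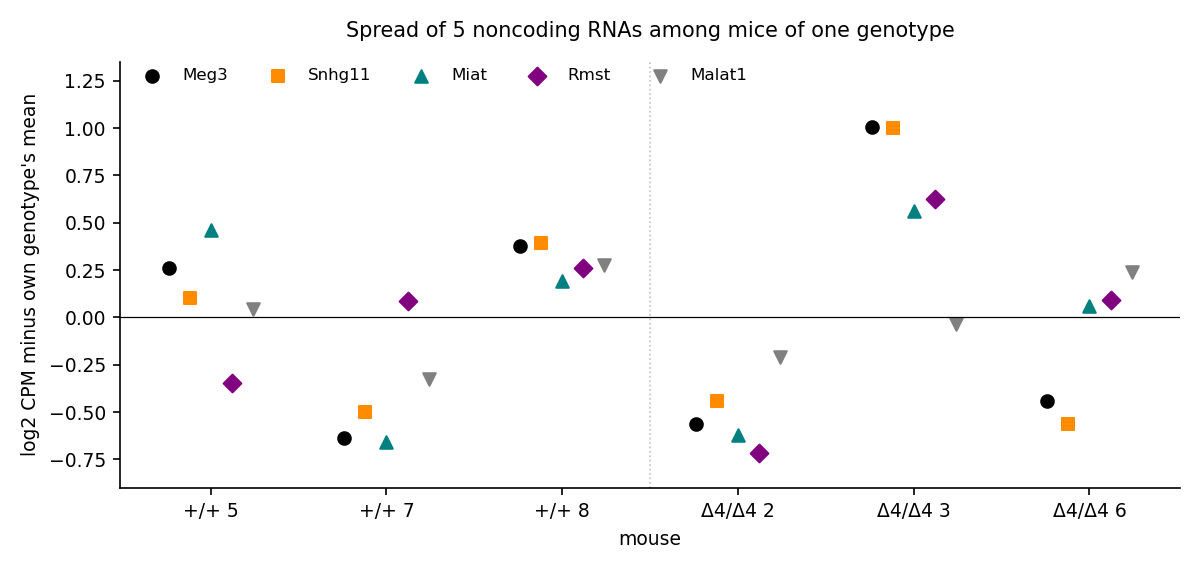
Log2 CPM of *Meg3*, *Snhg11*, *Miat*, *Rmst*, and *Malat1* in each mouse (x axis) minus the mean of that mouse's own genotype (y axis), with 1 symbol per transcript. *Meg3* and *Snhg11* lie close together in every mouse, at 1.005 and 1.002 in Phf21b Δ4/Δ4 replicate 3, while *Malat1* stays between -0.32 and 0.28.

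In pattern over the 6 mice, *Snhg11* was the second gene closest to *Meg3* of all those listed, at a distance of 0.113, and *Meg3* was the gene closest to *Snhg11*. *Coro6*, a coronin of the actin cytoskeleton, was closest to *Meg3* at 0.10, and the noncoding RNA *6430584L05Rik* was next to *Meg3* for *Snhg11* at 0.116. These genes share the libraries of Phf21b Δ4/Δ4 replicate 3 and Phf21b+/+ replicate 7, which set most of the pattern. Phf21b Δ4/Δ4 replicate 3 was the highest mouse in 23.8% of all genes, and it was highest with Phf21b+/+ replicate 7 lowest in 13.0%.

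The RefSeq promoters of *Meg3* and *Snhg11*, whose levels moved together, are shown side by side. For *Meg3*, the first of its 2 RefSeq promoters is chr12:109540746-109541045 on the plus strand of GRCm38.p6, and for *Snhg11* it is chr2:158375463-158375762 on the plus strand. *Meg3* holds the whole cAMP response element, in capitals, 57 bases before its start, and also TATAAA. The element is in 1.79% of all promoters of this length and in 2.90% of those of listed genes. *Snhg11* holds none of the 3 motifs, and its promoter has 60.0% G and C and 21 CpG dinucleotides against 53.7% and 13 in *Meg3*. Among the 9 transcripts with a RefSeq promoter (there was no entry for *Rmst*), the whole element was in *Meg3* alone, and TGACG was in *Meg3*, *D130079A08Rik*, and 3 times in *Malat1*.
Meg3: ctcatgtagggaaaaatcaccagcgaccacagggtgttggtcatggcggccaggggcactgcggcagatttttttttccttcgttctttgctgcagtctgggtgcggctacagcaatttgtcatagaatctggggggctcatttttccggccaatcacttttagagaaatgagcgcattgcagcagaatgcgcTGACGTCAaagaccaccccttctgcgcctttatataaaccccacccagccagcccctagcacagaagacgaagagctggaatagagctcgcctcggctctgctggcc
Snhg11: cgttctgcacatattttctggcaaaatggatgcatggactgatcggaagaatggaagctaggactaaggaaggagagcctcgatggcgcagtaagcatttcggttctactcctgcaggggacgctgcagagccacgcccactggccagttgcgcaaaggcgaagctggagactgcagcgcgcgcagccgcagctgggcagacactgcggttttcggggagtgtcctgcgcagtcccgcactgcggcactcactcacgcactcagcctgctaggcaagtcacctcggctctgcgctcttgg

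The domain of *Meg3* was examined gene by gene. Its maternally expressed neighbours *Rian*, which hosts small nucleolar RNAs, and *Mirg*, which hosts miRNAs, had levels that overlapped between genotypes. *Rian* was at 381, 513, and 313 CPM in Phf21b Δ4/Δ4 replicates 2, 3, and 6, against 323, 266, and 347 CPM in Phf21b+/+ replicates 5, 7, and 8. *Mirg* had 175, 252, and 144 reads and 179, 91, and 208 reads in the same order of mice. Both were highest in Phf21b Δ4/Δ4 replicate 3 and lowest in Phf21b+/+ replicate 7, as *Meg3* was, and their log2 differences were 0.35 (SE 0.19, FDR 0.30 by limma) and 0.29 (SE 0.40, FDR 0.66 by limma). The paternally expressed *Dlk1* and *Dio3*, which encode a Notch-like membrane protein and the enzyme that inactivates thyroid hormone, varied in another way. *Dio3* had 13.7, 8.14, and 0.391 CPM in Phf21b Δ4/Δ4 mice and 0.569, 0.169, and 0.539 CPM in Phf21b+/+ mice (log2 difference 3.23, SE 1.33, FDR 0.21 by limma). *Dlk1* had 10.3, 5.33, and 0.217 CPM against 0.332, 1.81, and 2.79 CPM (FDR 0.71 by limma). In both genes Phf21b Δ4/Δ4 replicates 2 and 3 were high and replicate 6 low. *Begain*, a postsynaptic density protein at the edge of the domain, was higher in all 3 Phf21b Δ4/Δ4 mice (58.4 ± 9.08 against 43.05 ± 6.51 CPM, log2 difference 0.44, SE 0.15, FDR 0.17 by limma), and *Wdr25* and *Ppp2r5c* had log2 differences of 0.12 (SE 0.12) and 0.11 (SE 0.09). Of these 7 genes, limma's test called 0 and voom 0, with 2 at an unadjusted p under 0.05, near the share of all genes. All 7 fitted log2 differences were above 0, with a median of 0.35.

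The small nucleolar RNA host genes, apart from *Snhg11*, mostly lay below 0. Of 18 listed, limma's test called 0 and voom 0, but 15 had a log2 difference below 0. An unadjusted p under 0.05 was reached by 5, a share near the 23.6% of all genes. In 8 of the 18 all Phf21b Δ4/Δ4 mice lay below all Phf21b+/+ mice, a larger share than the 16.0% of all genes, with none the other way around. The 18 include *Rian*, which is also counted in the *Dlk1-Dio3* domain. The median log2 difference was -0.36. *Gas5*, a host gene that is degraded when translated, had 78.8, 70.3, and 94.6 CPM in Phf21b Δ4/Δ4 replicates 2, 3, and 6, against 101, 102, and 119 CPM in Phf21b+/+ replicates 5, 7, and 8 (log2 difference -0.41, SE 0.13, FDR 0.16 by limma). *Snhg1* had 6.68 ± 1.07 against 9.93 ± 0.276 CPM (SD, n = 3 each; log2 difference -0.58, SE 0.15, FDR 0.13 by limma). The host genes and *Snhg11* differed in where they peaked: Phf21b+/+ replicate 8 was the highest mouse in 11 of the 18 (12.8% of all genes), and Phf21b Δ4/Δ4 replicate 3, where *Snhg11* was highest, in 2 (23.8% of all genes).

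Of 27 other long noncoding RNAs of the brain, 1 was past both thresholds by limma's test, where 1.22% of all genes were. It was *Dlx1as*, the antisense RNA of the interneuron homeobox gene *Dlx1*, with 7.30, 7.62, and 8.79 CPM in Phf21b Δ4/Δ4 replicates 2, 3, and 6, against 4.65, 4.09, and 3.55 CPM in Phf21b+/+ replicates 5, 7, and 8. Its genotypes did not overlap, and its log2 difference was 0.95 (SE 0.16, FDR 0.081 by limma). The strand setting of the counting is not given in the sources used here, so its reads and those of *Dlx1* cannot be told apart. *Dlx1* itself had a log2 difference of 0.40 (SE 0.33, FDR 0.47 by limma). *Dlx1as* was called in 1 of the 6 fits that leave out a mouse, the one without Phf21b Δ4/Δ4 replicate 6. An unadjusted p under 0.05 by limma was reached by 7 of the 27, 4 of them lower, against 23.6% of all genes. The median of the 27 was 0.06. Phf21b Δ4/Δ4 replicate 3 was the highest mouse in 10 of them. Among these, *Cdr1os* had 98.6 CPM in that mouse and 24.8 to 48.2 CPM in the others, and *Kcnq1ot1* had 87.4 CPM and 25.4 to 55.6 CPM.

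Of 25 proteins, most of them splicing factors and nuclear speckle proteins and the rest SOX2 and proteins of the Polycomb complex (*Ezh2*, *Suz12*, and *Jarid2*), limma's test called 0 and voom 0. An unadjusted p under 0.05 was reached by 4, all with a lower level, against 23.6% of all genes. Their median log2 difference was -0.05, and they summed to 3810 to 3922 CPM in Phf21b Δ4/Δ4 mice and 3792 to 3940 CPM in Phf21b+/+ mice.

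Other genes with predicted or clone-based symbols were counted for comparison. Of 429 listed genes named Gm and a number, without those among the 10, 2 were lower past both thresholds (*Gm50431*, log2 difference -1.02, SE 0.15, FDR 0.065, and *Gm13373*, -3.61, SE 0.48, FDR 0.062, by limma), 0 were higher, and 54 were at an unadjusted p under 0.05. The share called lower was 0.466%, beside 0.663% of all genes. *Gm5741* and *Gm38534*, both called lower, are left out of the first share but not of the second. Of 499 symbols ending in Rik, again without those among the 10, 1 was higher (*2900026A02Rik*, log2 difference 0.71, SE 0.13, FDR 0.092 by limma) and 0 were lower, with 79 at an unadjusted p under 0.05. *D130009I18Rik* and *D130079A08Rik*, both called lower, are left out of this count. The shares at that p were below the 23.6% of all genes in both classes. Both classes had a median log2 difference of -0.06.

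**Figure D5:**
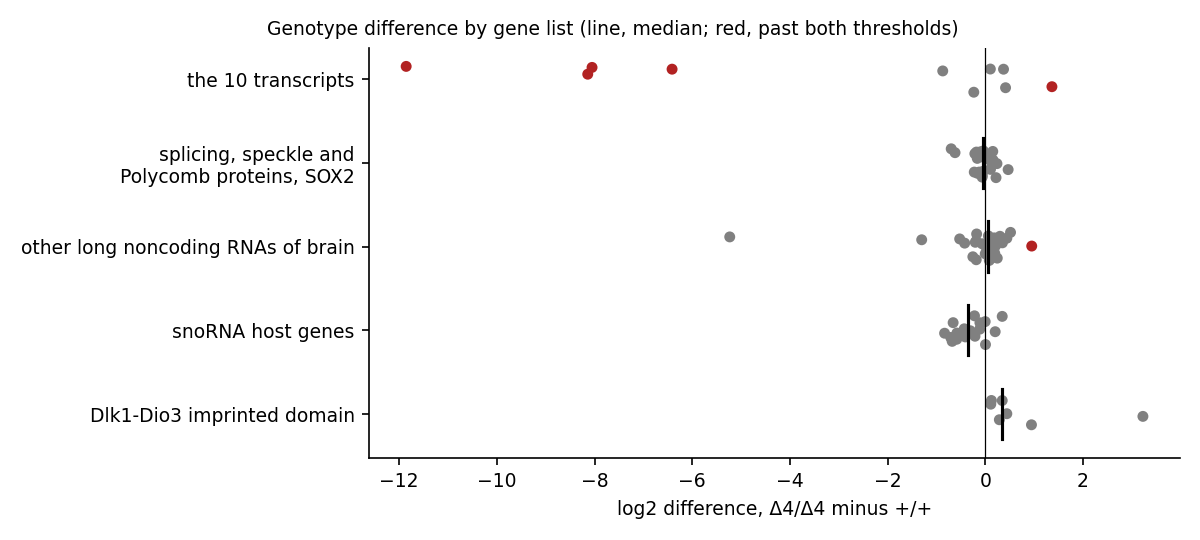
Log2 difference between genotypes (x axis, Phf21b Δ4/Δ4 minus Phf21b+/+) of each gene of 4 lists and of the 10 transcripts (y axis; points are spread vertically at random; red, past both thresholds; black line, median of the list). The 4 lost transcripts lie at or beyond -6.41, a fitted value that depends on the prior count, while the lists have medians from -0.36 to 0.35 and 1 called gene, *Dlx1as*.

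Levels of the 10 can be compared between genes only per length of exon. Per kb, *Malat1* stood highest at 350 to 578 CPM over the 6 mice. *Gm5741*, the shortest, came next in Phf21b+/+ mice at 33.3 to 88.8 CPM per kb, above *Snhg11* at 7.95 to 14.8, *Meg3* at 6.77 to 13.6, and *Miat* at 3.71 to 8.07 in the same mice, and the last 3 overlapped. *Gm38534* had 1.66 to 3.58, *Rmst* 1.27 to 1.93, and *Gm10754* 1.16 to 1.43 CPM per kb in Phf21b+/+ mice. The long intergenic RNAs beside *Pou4f1* were lowest, with 0.275 to 0.476 for *D130009I18Rik* and 0.133 to 0.209 for *D130079A08Rik*.

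Shared sequence could blur some of these values. Against the GENCODE transcripts, no stretch of at least 75 bases at 95% identity or more joined *Gm5741*, *D130009I18Rik*, or *D130079A08Rik* to another gene. *Malat1* shared such a stretch with 248 other genes, *Snhg11* with 101, *Rmst* with 9, *Meg3* with 7, *Miat* with 4, *Gm38534* with 2, and *Gm10754* with 1. Reads of these stretches may be uncertain in origin, though matches on either strand and with some mismatches were counted. In the most shared of each gene's annotated transcripts, the stretches covered 100% of the bases for *Gm10754*, 89.1% for *Miat*, 84.9% for *Meg3*, 76.9% for *Rmst*, 33.2% for *Malat1*, 8.52% for *Snhg11*, and 5.08% for *Gm38534*. Of the sharing genes, 159 were among the listed genes for *Malat1*, 56 for *Snhg11*, and 1 for *Rmst*. For *Meg3*, *Miat*, *Gm38534*, and *Gm10754* the number was 0. How the counting treated reads that fit several genes is not given in the sources used here.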

How the data were processed

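Hippocampal RNA of 3 Phf21b Δ4/Δ4 and 3 Phf21b+/+ mice was analysed, grouped by sample label, with 1 library per mouse. The authors trimmed reads with Trimmomatic 0.39, mapped them to GRCm38 with STAR 2.7.3a, counted them with featureCounts (Subread 1.6.4), and scaled them to effective library size with edgeR. Deposited for the 14477 genes that passed the study's filter on CPM were log2 CPM values. Their strand setting and prior count are not given in the sources used here. Low values rise in steps of 1 read. With the lowest value of -7.81 taken as 0 reads, 100% of values were whole reads within 0.1, and reads per mouse on listed genes were 20495605 to 24881257.

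Genotypes were compared on the deposited values with limma 3.58.1 in R 4.3.3 (moderated test with a mean-dependent prior variance, 2-sided, no covariate), with Benjamini-Hochberg adjustment over all listed genes. Called genes had an FDR under 0.1 and differed by more than 1.3-fold, as in the study's methods. An exact permutation test over groups of 3 cannot reach a p below 0.1. The study's methods name littermates, but the labels do not say which of these mice shared a litter. Alternatives were a constant prior variance, robust fitting, array weights, a filter at a mean log2 CPM of 1, log2(CPM + 1), quantile normalization, median centring, voom on the recovered reads, and leaving out each mouse.

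The 10 transcripts and all gene lists were chosen with earlier results of these data known. Named beside them are their nearest listed genes, the 2 most alike in pattern, the called genes of the lists, the genes of the *Dlk1-Dio3* domain, and, after their values were seen, *Gas5*, *Snhg1*, *Cdr1os*, *Kcnq1ot1*, and *Dlx1*. A single neighbouring gene is not reported here. Positions come from GENCODE release M21 of GRCm38, which placed 14277 of the symbols (98.6%), while the study used a later release of the same build. Promoters come from RefSeq (GRCm38.p6). Transcripts were compared with BLAST+ 2.17.0.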

Additional observations from a re-analysis of the deposited data

How the results depend on the processing

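No paired analysis was possible because the genotypes share no replicate numbers and the labels do not say which mice were littermates. The number of all genes past the thresholds was 176, and it was 75 with a constant prior variance, 3549 with array weights (which gave Phf21b+/+ replicate 8 a weight of 4.63), 101 when genes under a mean log2 CPM of 1 were removed, and 9 to 2830 with each mouse left out. Of the 10 transcripts 5 were past the thresholds. With array weights 7 were, *Rmst* (log2 difference -1.39) and *Malat1* (-0.55) added, and 1 was with the filter on mean log2 CPM, which removes the 4 lost transcripts, and 0 to 5 with a mouse left out: 3 without Phf21b Δ4/Δ4 replicate 2 or 3, 2 without Phf21b+/+ replicate 5 or 7, and 0 without Phf21b+/+ replicate 8. Without Phf21b Δ4/Δ4 replicate 6, 5 of the 10 were past the thresholds, and so were 2830 of all genes. The counts thus differed with the mouse that was left out, and the cause was not tested. The 4 lost transcripts were lower in all 13 alternatives that kept them, and *Gm10754* was higher in all 14. The genotypes did not overlap in these 5, so weighting or leaving out mice could not have turned their signs. The log2 differences of *Meg3*, *Snhg11*, and *Miat*, none of them called, turned negative with array weights (-0.10, -0.08, and -0.38) and without Phf21b Δ4/Δ4 replicate 3, and that of *Miat* also without Phf21b+/+ replicate 7. Those of *Rmst* and *Malat1* were negative in all 14 alternatives.

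Array weights gave 1 called gene in the *Dlk1-Dio3* domain, 9 among small nucleolar RNA host genes, 9 among other brain noncoding RNAs, 2 among splicing, speckle, and Polycomb proteins and SOX2, 126 among Gm symbols, and 150 among Rik symbols. With a mouse left out these counts were 0 to 2, 0 to 7, 0 to 7, 0 to 3, 0 to 59, and 0 to 86, the highest always without Phf21b Δ4/Δ4 replicate 6. The filter on mean log2 CPM gave 1 Gm and 0 Rik symbols. Rik symbols numbered 2 with log2(CPM + 1), 0 with quantile normalization, and 0 with voom. *D130079A08Rik* had at most 33 reads in any mouse, which limits the bound on its fold.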
